A study of Mus musculus with 6 samples.

Results

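Foxp3-positive T cells were identified among CD45-sorted cells of mouse melanomas by the RNA counts of each cell. A cell was kept when its barcode held at least 500 unique molecular identifiers (UMIs, each standing for 1 captured RNA molecule) from genes, at most 10% of them mitochondrial, and when its top hashtag had at least 10 counts and at least 70% of all its hashtag counts. Of the 20407 kept cells, 980 held a Foxp3 UMI. Members also needed a UMI of Cd3e, Cd3d or Cd3g, no UMI of Cd8a, Cd8b1 or Trdc, and fewer than 5 UMIs of the macrophage genes C1qa, C1qb and C1qc. The absence of a CD3 UMI removed 84 cells, a Cd8a or Cd8b1 UMI 125, a Trdc UMI 7 and the C1q limit 255, which left 509 members, 318 in pool E5 and 191 in pool E6. In all, 6054 kept cells held a CD3 UMI and are called CD3-positive cells below. They include the 125, 7 and 255 cells that the limits on Cd8a or Cd8b1, Trdc and C1q took out of the members.

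The tumours were subcutaneous YUMM1.7 melanomas, from a mouse melanoma line, grown in female mice 8 weeks old. All 16 mice carried floxed alleles of the glucocorticoid receptor gene (GRf/f). LysM-Cre mice also carried LysMCre, whose Cre is driven by the lysozyme promoter of macrophages, monocytes and neutrophils, so the T cells described here were not its intended target. The 4 conditions, with 4 mice each, were LysM-Cre mice given anti-PD-1, LysM-Cre mice given isotype antibody, floxed mice without Cre given anti-PD-1, and floxed mice without Cre given isotype antibody. Both antibodies were dosed at 12.5 mg/kg from day 7, in a course of 3 weeks with 2 doses each week, and the tumours were harvested on day 28. The submitters' antibody table calls the genotypes wildtype and KO, read here as floxed and LysM-Cre. Cells were stained with barcoded antibodies and counted together with RNA (CITE-seq) in 2 pools of 8 hashtagged mice. Each condition had mice 1 and 2 in pool E5 and mice 3 and 4 in pool E6. The same 2 hashtags marked a condition in both pools, so hashtag and condition cannot be told apart. A mouse is the unit of replication throughout, and mouse numbers are names that pair nothing.

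Regulatory T cells are CD4 T cells that restrain immune responses, and the transcription factor Foxp3 maintains their identity. They carry the high-affinity interleukin-2 receptor, whose alpha chain is CD25 (Il2ra), and signal from it through STAT5, so they take up interleukin-2 made by other T cells. The inhibitory receptor CTLA-4, the transcription factor Helios (Ikzf2) and the costimulatory receptor OX40 (Tnfrsf4) are further textbook markers. In tumours, regulatory T cells are known for high expression of costimulatory receptors and of molecules that dampen effector T cells, and the PD-1 receptor can be present on them as well as on effector T cells.

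The surface readout rests on short DNA tags that name each antibody. Those on which the results turn most are shown 5′ to 3′ as the submitters' antibody table gives them, in lower case because no part of a tag stands out.
CD25: accatgagacacagt
CD278 (ICOS): actgccatatcccta
CD103 (integrin alpha E): ttcattagcccgctg
ITGB7 (integrin beta 7): tccttggatgtaccg
CD226 (DNAM-1): acgcagtatttccga
CD4: aacaagacccttgag
CD8a: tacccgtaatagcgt
Hashtags 8 and 9, which marked the floxed mice given isotype antibody, were listed in that table with 1 shared tag sequence, although the matrix held separate counts for them.

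Members held a median of 4884 gene UMIs, 1951 genes and 1806 antibody counts. The cells used for comparison were 430 Foxp3-negative CD4 T cells, with a median of 4464.5 gene UMIs, and 1936 CD8 T cells, with a median of 6069. The Foxp3-negative CD4 T cells had a Cd4 UMI and a CD3 UMI and no Foxp3 UMI, and the CD8 T cells had a Cd8a or Cd8b1 UMI and neither Cd4 nor Foxp3. Both followed the other limits of the members. Of the barcode sequences, 805 occurred in both pools, and no member's barcode belonged to a member in the other pool. The hashtag limit could remove doublets of 2 mice only where no single hashtag made up most of the hashtag counts. Doublets of 2 mice with uneven hashtag counts, and doublets within the same mouse, could pass it. No doublet caller was run, and 14 members held more than 20000 gene UMIs. In 435 of the 509 members, and in 360 of the 430 Foxp3-negative CD4 T cells, 1 to 4 C1q UMIs were counted. Of the members, 370 had a UMI of Lyz2, Cd79a or S100a8.

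The label was checked with markers that the rule did not use. Of the 4 markers Il2ra, Ctla4, Ikzf2 and Tnfrsf4, all 4 were detected in 337 members (66.2%) and none in 4 members (0.786%). Among Foxp3-negative CD4 T cells all 4 were detected in 43 cells (10%) and none in 101 cells (23.5%). Foxp3 RNA can go uncounted in a cell, so some of these cells may be regulatory T cells, which was not tested. Among CD8 T cells all 4 were detected in 41 cells (2.12%) and none in 897 cells (46.3%). A single Foxp3 UMI chose 155 members, 2 UMIs chose 100 and at least 3 chose 254. Just inside that limit, the 155 members with 1 Foxp3 UMI had summed levels of 581 CPM (counts per 1000000 gene counts) for Il2ra and 1528 CPM for Ikzf2. Just outside it, Foxp3-negative CD4 T cells had 102 CPM for Il2ra and 237 CPM for Ikzf2. Members with 2 Foxp3 UMIs had 548 CPM for Il2ra and 1488 CPM for Ikzf2, below those with 1. Members with at least 3 Foxp3 UMIs had 764 CPM for Il2ra and 1548 CPM for Ikzf2.

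A Cd4 UMI was counted in 284 of the 509 members, and the antibody against CD4 covered the rest. Members without a Cd4 UMI had 57936 CPM of CD4 antibody (CPM of all antibody counts), members with one had 69224, Foxp3-negative CD4 T cells had 138800 and CD8 T cells had 1927. The level without Cd4 RNA lay near that with it and far above that of CD8 T cells, with no test made.

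To compare detection at 1 depth, cells with at least 2000 gene UMIs were thinned to 2000, which left 487 members, 413 Foxp3-negative CD4 T cells and 1892 CD8 T cells and left out 22, 17 and 44 cells. Macrophage-type cells with at least 5 C1q UMIs and no CD3 UMI were set beside them. Leaving out cells with a CD3 UMI can understate free RNA of T cells in these values. The 255 cells with Foxp3 and CD3 UMIs that the C1q limit took out of the members were not among them. The 6539 macrophage-type cells had a median of 12702 gene UMIs before thinning, against 4979 in the members. Foxp3 remained in 67.6% of thinned members and was found in 0.122% of the macrophage-type cells. Ikzf2 was detected in 87.9% of members, 19.6% of Foxp3-negative CD4 T cells, 13.8% of CD8 T cells and 1.70% of macrophage-type cells. Tnfrsf4 was detected in 85.4%, 43.8%, 8.30% and 0.612% of the same cells in that order, and Il2ra in 67.6%, 15.3%, 6.82% and 1.42%. Other genes were detected in part of the members. The lectin-like receptor gene Klrg1 was found in 38.2% of members and 5.33% of Foxp3-negative CD4 T cells. Itgae, which encodes CD103, was found in 35.1% of members and 6.05% of Foxp3-negative CD4 T cells. Il10, which encodes the suppressive cytokine interleukin-10, was found in 9.24% of members, and Ccr8, a chemokine receptor gene known from tumour regulatory T cells, in 5.34%.

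Set against Foxp3-negative CD4 T cells of the same tumours, the Foxp3-positive cells had higher RNA of the regulatory T cell markers and of costimulatory receptors, and lower RNA of helper ligands and cytokines. Counts were summed per mouse and cell group over the 10 mice with at least 10 cells of each group, and tested with edgeR's quasi-likelihood test with the mouse as a block and Benjamini-Hochberg adjustment. Of 5134 genes tested, 305 (5.94%) were higher and 310 (6.04%) were lower in the Foxp3-positive cells at an adjusted p under 0.05. The median log2 difference over all of them was near 0 (-0.0042). Genes of the selection rule stayed in the fit and were not tested. The Foxp3-negative cells were also selected by a Cd4 UMI, which members did not need. With members limited to those that had one, 562 of the 615 genes could still be tested and 441 of them passed in the same direction.

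Il2ra ranged over 483, 659 and 1037 CPM in Foxp3-positive cells (lowest, median and highest of 11 mice), against 24.8, 85.4 and 229 CPM in Foxp3-negative CD4 T cells (12 mice). Here and below, such ranges of RNA cover every mouse with at least 10 cells of that group, also those outside the paired test. The mice did not overlap between the cell groups. The paired log2 difference was 2.64 ± 0.22 (SE, edgeR adjusted p = 1.7e-07), with Il2ra higher in 10 of 10 mice. Throughout, the SE of a log2 difference is its absolute size divided by the square root of the test's F statistic. It was derived from the test and not estimated on its own. Ctla4 ranged over 631, 1010 and 1488 CPM in Foxp3-positive cells, against 59.6, 233 and 556 CPM in Foxp3-negative CD4 T cells. Its log2 difference was 2.11 ± 0.16 (edgeR adjusted p = 5.4e-08), higher in 10 of 10 mice. Ikzf2 ranged over 1137, 1546 and 1979 CPM in Foxp3-positive cells, against 43.2, 245 and 613 CPM in Foxp3-negative CD4 T cells, a log2 difference of 2.50 ± 0.18 (edgeR adjusted p = 2.5e-08). Neither gene's mice overlapped between the cell groups. Tnfrsf4 was less separate, at 1216, 1510 and 1988 CPM in Foxp3-positive cells and 164, 623 and 1515 CPM in Foxp3-negative CD4 T cells. Its log2 difference was 1.45 ± 0.21 (edgeR adjusted p = 5.7e-05), and it was higher in 9 of 10 mice. Foxp3 itself, which the rule used, ranged over 387, 486 and 593 CPM in the members of 11 mice.

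**Figure D1:**
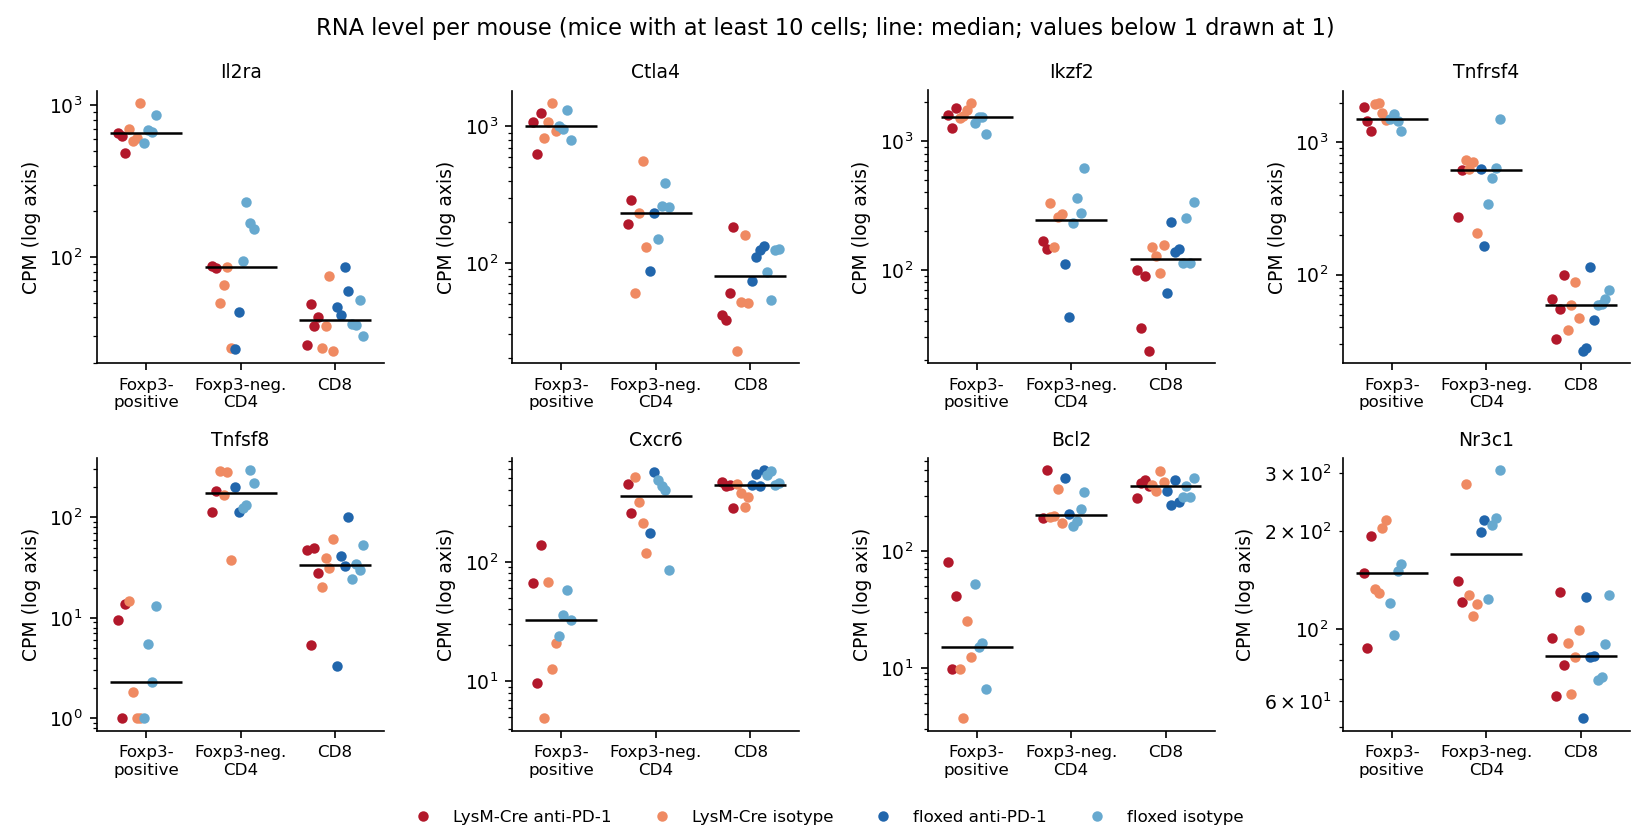
RNA level in CPM on log axes for 8 genes, 1 point per mouse with at least 10 cells of the cell group, coloured by condition, with a line at the median. Il2ra, Ctla4 and Ikzf2 of Foxp3-positive cells lie above every mouse of Foxp3-negative CD4 T cells and CD8 T cells, Tnfsf8, Cxcr6 and Bcl2 have lower medians, and Nr3c1 overlaps with Foxp3-negative CD4 T cells.

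The starts of 3 genes are shown, Foxp3 because the rule used it and Il2ra and Ctla4 because they were among the markers checked. Each window runs from 250 bases before to 50 bases after the RefSeq start, on the plus strand of GRCm38.p6. Capitals mark a match to the STAT-type pattern TTCNNNGAA. RefSeq gives 2 windows for Foxp3, of which the second, chrX:7580233-7580532, is shown. The others are Il2ra at chr2:11642542-11642841 and Ctla4 at chr1:60908775-60909074. No sequence of Ikzf2 was used here.
Foxp3: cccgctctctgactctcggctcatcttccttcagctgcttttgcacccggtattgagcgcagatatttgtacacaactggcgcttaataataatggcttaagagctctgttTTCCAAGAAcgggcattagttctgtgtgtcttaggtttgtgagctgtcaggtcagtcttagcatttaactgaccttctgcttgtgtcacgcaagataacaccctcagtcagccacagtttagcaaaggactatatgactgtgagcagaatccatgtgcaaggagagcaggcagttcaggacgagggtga
Il2ra: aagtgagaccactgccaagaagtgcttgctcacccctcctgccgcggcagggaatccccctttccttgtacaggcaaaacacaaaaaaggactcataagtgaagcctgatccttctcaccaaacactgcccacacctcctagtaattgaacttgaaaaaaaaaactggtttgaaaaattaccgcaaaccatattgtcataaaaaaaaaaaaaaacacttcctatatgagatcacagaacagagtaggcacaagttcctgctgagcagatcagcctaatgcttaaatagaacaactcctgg
Ctla4: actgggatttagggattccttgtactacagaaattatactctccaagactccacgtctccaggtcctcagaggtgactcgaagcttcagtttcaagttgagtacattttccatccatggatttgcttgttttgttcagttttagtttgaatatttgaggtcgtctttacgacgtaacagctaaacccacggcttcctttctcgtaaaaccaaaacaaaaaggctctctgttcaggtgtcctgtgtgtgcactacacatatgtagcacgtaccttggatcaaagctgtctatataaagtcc
Both strands were searched for 3 patterns, each counted on its own. The STAT-type pattern was found 1 time in the Foxp3 window shown, its first base 139 bases before the start, and at the first Foxp3 window, Il2ra, Ctla4 and Tnfrsf4 no match was found. It occurred in 8.33% of 32544 mouse windows of that length. The forkhead pattern TGTTTAC, found in 3.66% of windows, and the AP-1 pattern TGANTCA, found in 7.79%, were in none of the 5 windows of Foxp3, Il2ra, Ctla4 and Tnfrsf4. A match is a description of the letters and not a binding site.

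Among 21 regulatory T cell genes, 19 were tested against Foxp3-negative CD4 T cells, and 15 were higher, 1 was lower and 3 did not pass. Their median log2 difference was 1.30. The list was chosen with earlier results of these data known, so its direction is not independent evidence. Lrrc32, which encodes the docking receptor GARP for latent TGF-beta, had a log2 difference of 2.95 ± 0.53 (edgeR adjusted p = 0.0007). Lrrc32 averaged 34.8 ± 19.3 CPM in Foxp3-positive cells and 4.73 ± 6.31 CPM in Foxp3-negative CD4 T cells (SD, n = 10 mice). Itgae averaged 240 ± 56.1 CPM in Foxp3-positive cells and 32.2 ± 20.4 CPM in Foxp3-negative CD4 T cells, and was higher in 10 of 10 mice. Il10 was more uneven, at 120 ± 132 CPM in Foxp3-positive cells and 19.8 ± 33.5 CPM in Foxp3-negative CD4 T cells, higher in 8 of 10 mice (log2 difference 2.06 ± 0.61, edgeR adjusted p = 0.029). Leaving out any 1 of 5 mice ended the call of Il10 (edgeR adjusted p up to 0.108). Nrp1, which encodes neuropilin-1, was the 1 gene lower, with a log2 difference of -1.19, and is named because it was the exception.

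Genes known from effector regulatory T cells in tumours rose in part. Of 19 tested from a list of 23, 11 were higher, 1 was lower and 7 did not pass, with a median log2 difference of 0.97. Klrg1 had the largest increase of the genes named by the rule, at 171, 296 and 358 CPM in Foxp3-positive cells against 0, 21.4 and 86.1 CPM in Foxp3-negative CD4 T cells. The mice did not overlap, and the log2 difference was 3.09 ± 0.30 (edgeR adjusted p = 7.5e-07). Itgb8, whose integrin activates TGF-beta, had a log2 difference of 2.46 ± 0.36. Prdm1, which encodes the transcription factor Blimp-1, rose by 1.48 ± 0.25, and Glrx, which encodes glutaredoxin, by 1.73 ± 0.18. The 1 gene lower was Il12rb2, which encodes a chain of the interleukin-12 receptor, at -1.71 ± 0.50, a call lost on leaving out any 1 of 3 mice (edgeR adjusted p up to 0.0766).

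Of 8 tested costimulatory receptor genes from a list of 10, 5 were higher, 1 was lower and 2 did not pass, with a median log2 difference of 1.18. Icos ranged over 741, 852 and 1200 CPM in Foxp3-positive cells, against 194, 331 and 409 CPM in Foxp3-negative CD4 T cells. Every Foxp3-positive value lay above every Foxp3-negative one, and the log2 difference was 1.30 ± 0.13 (edgeR adjusted p = 8.3e-07). Tnfrsf9, which encodes 4-1BB, rose by 1.92 ± 0.26, Cd27 by 1.63 ± 0.21 and Tnfrsf18, which encodes GITR, by 1.06 ± 0.16. Cd226, whose receptor competes with TIGIT for shared ligands, was the 1 that fell, at 19.1 ± 12.2 CPM in Foxp3-positive cells and 93 ± 49.6 CPM in Foxp3-negative CD4 T cells (log2 difference -2.29 ± 0.28, lower in 10 of 10 mice). Among 8 tested inhibitory receptor genes from a list of 12, 2 were higher, 1 was lower and 5 did not pass, with a median of 0.37. The 2 were Ctla4 and Havcr2, which encodes TIM-3 and rose by 1.08 ± 0.30, a call lost on leaving out either of 2 mice (edgeR adjusted p up to 0.0768). Pdcd1, which encodes PD-1 itself, fell. It ranged over 19.2, 38.1 and 83 CPM in Foxp3-positive cells, against 12.5, 148 and 352 CPM in Foxp3-negative CD4 T cells, which overlapped. The log2 difference of Pdcd1 was -1.89 ± 0.37 (edgeR adjusted p = 0.0016), lower in 8 of 10 mice.

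None of the 8 tested genes of conventional helper cells (16 in the list) was higher, 6 were lower and 2 did not pass, and the median log2 difference was -2.72. Tnfsf8, which encodes the CD30 ligand, ranged over 0, 2.31 and 14.7 CPM in Foxp3-positive cells, against 37.6, 173 and 293 CPM in Foxp3-negative CD4 T cells, without overlap. Its log2 difference was -5.15 ± 0.30 (edgeR adjusted p = 1.6e-09). Ifng, which encodes interferon-gamma, averaged 5.98 ± 6.1 CPM in Foxp3-positive cells and 172 ± 199 CPM in Foxp3-negative CD4 T cells. Cd40lg, the gene of the helper ligand CD40L, averaged 8.43 ± 10.4 CPM in Foxp3-positive cells and 84 ± 38.3 CPM in Foxp3-negative CD4 T cells. Tnfsf11, which encodes RANKL, averaged 5.41 ± 6.23 CPM in Foxp3-positive cells and 71.3 ± 56.4 CPM in Foxp3-negative CD4 T cells. Each of these 4 genes was lower in 10 of 10 mice.

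Effector genes went both ways. Of 11 tested genes of cytotoxic cells (13 in the list), 1 was higher, 6 were lower and 4 did not pass, with a median of -0.85. The gene that rose was Gzmb, which encodes granzyme B, at 767, 1300 and 2120 CPM in Foxp3-positive cells against 0, 118 and 476 CPM in Foxp3-negative CD4 T cells. Its mice did not overlap, and the log2 difference was 2.49 ± 0.25 (edgeR adjusted p = 8.6e-07). Gzmk, which encodes granzyme K, and Fasl, which encodes the death ligand FasL, fell by 4.49 ± 0.80 and 2.45 ± 0.50 on the log2 scale. Granzyme genes are alike in sequence, and how reads shared among them were assigned is not given in the sources used here.

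Some survival and homing genes of resting T cells were lower. Of 11 tested from a list of 13, 1 was higher, 5 were lower and 5 did not pass, with a median of -0.38. Tcf7, which encodes the transcription factor TCF-1, averaged 12.5 ± 25.8 CPM in Foxp3-positive cells and 119 ± 54.5 CPM in Foxp3-negative CD4 T cells (log2 difference -3.95 ± 0.43). Bcl2, which protects cells from apoptosis, ranged over 3.68, 15.1 and 81.2 CPM in Foxp3-positive cells, against 165, 205 and 495 CPM in Foxp3-negative CD4 T cells. No mouse overlapped, and the log2 difference of Bcl2 was -3.31 ± 0.31 (edgeR adjusted p = 3.8e-07). The egress and homing genes S1pr1 and Ccr7 fell by 1.31 ± 0.31 and 1.37 ± 0.38, and the call of Ccr7 was lost on leaving out either of 2 mice (edgeR adjusted p up to 0.0609). Among 8 tested chemokine receptor genes from a list of 12, 2 were higher, 2 were lower and 4 did not pass (median 0.02). Ccr2 averaged 702 ± 130 CPM in Foxp3-positive cells and 246 ± 146 CPM in Foxp3-negative CD4 T cells. Cxcr6 averaged 46.1 ± 39 CPM in Foxp3-positive cells and 326 ± 153 CPM in Foxp3-negative CD4 T cells, lower in 10 of 10 mice. The other gene lower was Ccr7.

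Genes downstream of interleukin-2 rose in part, with 4 higher, 1 lower and 9 not past the threshold of 14 tested (median 0.32). Pim1, Socs2 and Cish, which STAT5 is known to induce, rose by 1.27 ± 0.14, 1.09 ± 0.25 and 0.52 ± 0.14, and Il2ra and Bcl2, described above, are also on this list. Of 29 interferon response genes tested (30 in the list), 7 were higher, 1 was lower and 21 did not pass, with a median of 0.37. Iigp1 and Igtp, which encode interferon-induced GTPases, rose by 1.44 ± 0.23 and 1.13 ± 0.17, and Ifi204 fell by 0.98 on the log2 scale. Of 20 tested glucocorticoid response genes (22 in the list), 5 were higher, 1 was lower and 14 did not pass, with a median of 0.20. The metallothionein genes Mt1 and Mt2 rose by 1.38 ± 0.18 and 1.22 ± 0.37, and Ddit4, an inhibitor of mTOR signalling, by 0.92 ± 0.20. The call of Mt2 was lost on leaving out any 1 of 7 mice (edgeR adjusted p up to 0.123). Mt1 and Ddit4 also respond to metals, hypoxia or stress. Nr3c1, the glucocorticoid receptor gene, ranged over 87.4, 148 and 216 CPM in Foxp3-positive cells, against 110, 169 and 306 CPM in Foxp3-negative CD4 T cells. These overlapped, and the log2 difference of -0.30 ± 0.19 did not pass (edgeR adjusted p = 0.37). Of 13 tested hypoxia and glycolysis genes (16 in the list), 3 were higher, none was lower and 10 did not pass (median 0.38). Those were Bnip3 (1.2 ± 0.30), Ndrg1 (1.05 ± 0.26) and the pyruvate kinase gene Pkm (0.66).

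None of 14 tested cell cycle genes (18 in the list) passed in either direction, with a median of -0.26. Lineage transcription factor genes had 1 higher, 2 lower and 9 not past the threshold of 12 tested from a list of 17 (median -0.10). The 3 were Ikzf3, which encodes Aiolos, at 0.91, Id2 at -0.93 and Runx3 at -0.62, where the calls of Ikzf3 and Runx3 were lost on leaving out LysM-Cre isotype mouse 2 (edgeR adjusted p = 0.0724 and 0.0561). T cell receptor activation genes had 1 higher, 2 lower and 11 not past of 14 tested from a list of 16 (median -0.09), where Tnfrsf9 rose and Nfatc1 (-0.75) and Dusp2 (-0.69) fell. Of the 12 genes of the dissociation stress list, 1 was higher, 3 were lower and 8 did not pass. The lower ones were Fosb and the heat shock genes Hspa1b (-2.69 ± 0.34) and Hspa1a (-1.91 ± 0.30), a pair of near-identical copies whose reads may be shared, and the higher one was Jun (0.65), whose call was lost on leaving out any 1 of 5 mice (edgeR adjusted p up to 0.0673). The summed stress list ranged over 2604, 3261 and 6487 CPM in Foxp3-positive cells, against 1654, 3842 and 6868 CPM in Foxp3-negative CD4 T cells. The part of tissue dissociation in these values was not tested.

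Outside the lists, the genes with the largest increases named by the rule included Arl5a, which encodes a small GTPase, at 458 ± 150 CPM in Foxp3-positive cells and 64.9 ± 24 CPM in Foxp3-negative CD4 T cells (log2 difference 2.70 ± 0.17, higher in 10 of 10 mice). Gpr55, which encodes a lipid receptor, had 90.4 ± 33 CPM in Foxp3-positive cells and 10.8 ± 7.71 CPM in Foxp3-negative CD4 T cells. Neb, the gene of the muscle protein nebulin, had 163 ± 76.5 CPM in Foxp3-positive cells and 29.6 ± 29.2 CPM in Foxp3-negative CD4 T cells. Among the largest decreases were Slc17a6, which encodes a vesicular glutamate transporter, at a log2 difference of -5.41, the chemokine gene Ccl1 at -5.11 and the lectin receptor gene Klrd1 at -3.45.

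Against CD8 T cells, more genes passed the threshold and the same marker genes were higher. There were 1936 CD8 T cells and 430 Foxp3-negative CD4 T cells. The 2 comparisons thus differ in what they can detect, and their counts of genes do not compare the sizes of the differences. The 11 mice with at least 10 cells of each group were used. Of 7678 genes tested, 1102 (14.4%) were higher and 1162 (15.1%) were lower in Foxp3-positive cells. All 3 markers Il2ra, Ctla4 and Ikzf2 and also Tnfrsf4 were higher in 11 of 11 mice. Tnfrsf4 ranged over 1216, 1510 and 1988 CPM in Foxp3-positive cells, against 26.6, 58.9 and 115 CPM in CD8 T cells (16 mice), and its log2 difference was 4.52 ± 0.16 (edgeR adjusted p = 4.7e-15). The log2 differences of Il2ra, Ctla4 and Ikzf2 were 3.99 ± 0.17, 3.60 ± 0.19 and 3.46 ± 0.23. Of 20 tested regulatory T cell genes, 18 were higher, none was lower and 2 did not pass (median 2.97). Of 22 tumour effector regulatory T cell genes, 17 were higher, 1 was lower and 4 did not pass (median 2.15).

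Il10 had the second largest increase among the genes named by the rule, at 0, 50.8 and 441 CPM in Foxp3-positive cells against 0, 0 and 13.9 CPM in CD8 T cells. Its log2 difference was 6.96 ± 0.38, and it was higher in 10 of 11 mice. Areg, which encodes the tissue repair ligand amphiregulin, had the largest, at 43, 110 and 1322 CPM in Foxp3-positive cells against 0, 0 and 2.32 CPM in CD8 T cells (log2 difference 7.87 ± 0.27, edgeR adjusted p = 4.7e-15). The mice did not overlap for Areg, and 1 of the 11 mice was far above the others. Fitted values of genes near 0 counts in CD8 T cells depend on the prior count, and so do the SEs derived from them. Maf, which encodes the transcription factor c-Maf, averaged 1137 ± 428 CPM in Foxp3-positive cells and 37.4 ± 12 CPM in CD8 T cells (SD, n = 11 mice). Izumo1r, the gene of folate receptor 4, averaged 203 ± 62.6 CPM in Foxp3-positive cells and 4.22 ± 2.21 CPM in CD8 T cells. Ccr8, too low to test against Foxp3-negative CD4 T cells, ranged over 6.57, 25.4 and 33.2 CPM in Foxp3-positive cells, against 0, 0.684 and 4.69 CPM in CD8 T cells, higher in 11 of 11 mice (log2 difference 3.19 ± 0.42). Ebi3, a subunit gene of interleukin-35, had a log2 difference of 4.22 ± 0.30, and Il1rl1, the interleukin-33 receptor gene, of 3.03 ± 0.37.

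Of 13 cytotoxic genes, 12 were lower in Foxp3-positive cells than in CD8 T cells and 1 was higher (median -3.51). The 1 was again Gzmb (0.95), although its mice overlapped, at 767, 1300 and 2120 CPM in Foxp3-positive cells and 182, 870 and 2500 CPM in CD8 T cells. Ifng averaged 5.43 ± 6.06 CPM in Foxp3-positive cells and 384 ± 273 CPM in CD8 T cells, and the chemokine gene Xcl1 2.60 ± 2.65 CPM in Foxp3-positive cells and 351 ± 198 CPM in CD8 T cells. The lectin receptor gene Klrd1 and the transcription factor gene Eomes had log2 differences of -5.78 ± 0.32 and -5.76 ± 0.38. Costimulatory receptors had 7 higher, 1 lower and 1 not past the threshold of 9 tested (median 2.31), and inhibitory receptors 5 higher, 4 lower and 3 not past of 12 (median 0.28). Resting T cell genes had 2 higher, 4 lower and 6 not past of 12 (median -0.10), and helper genes 4 lower and 2 not past of 6 (median -1.59).

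Nr3c1 ranged over 87.4, 148 and 216 CPM in Foxp3-positive cells, against 53.1, 82.3 and 129 CPM in CD8 T cells, and was higher in 11 of 11 mice (log2 difference 0.61 ± 0.10, edgeR adjusted p = 9.5e-05). Of 21 glucocorticoid response genes, 10 were higher, 1 was lower and 10 did not pass (median 0.53). Hypoxia and glycolysis genes had 13 higher, none lower and 2 not past of 15 (median 0.80), interferon response genes 16 higher, none lower and 13 not past of 29 (median 0.42), and interleukin-2 genes 7 higher, 2 lower and 5 not past of 14 (median 0.48). Chemokine receptors had 5 higher, 2 lower and 3 not past of 10 (median 0.48), lineage factors 8 higher, 5 lower and 2 not past of 15 (median 0.48), and T cell receptor activation genes 7 higher, 4 lower and 4 not past of 15 (median 0.33). Cell cycle genes fell together, with 13 of 18 lower, none higher and 5 not past the threshold (median -0.74), Top2a among them at 76.3 ± 61.6 CPM in Foxp3-positive cells and 166 ± 50.8 CPM in CD8 T cells. The stress list had 4 higher, 3 lower and 5 not past of 12.

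**Figure D2:**
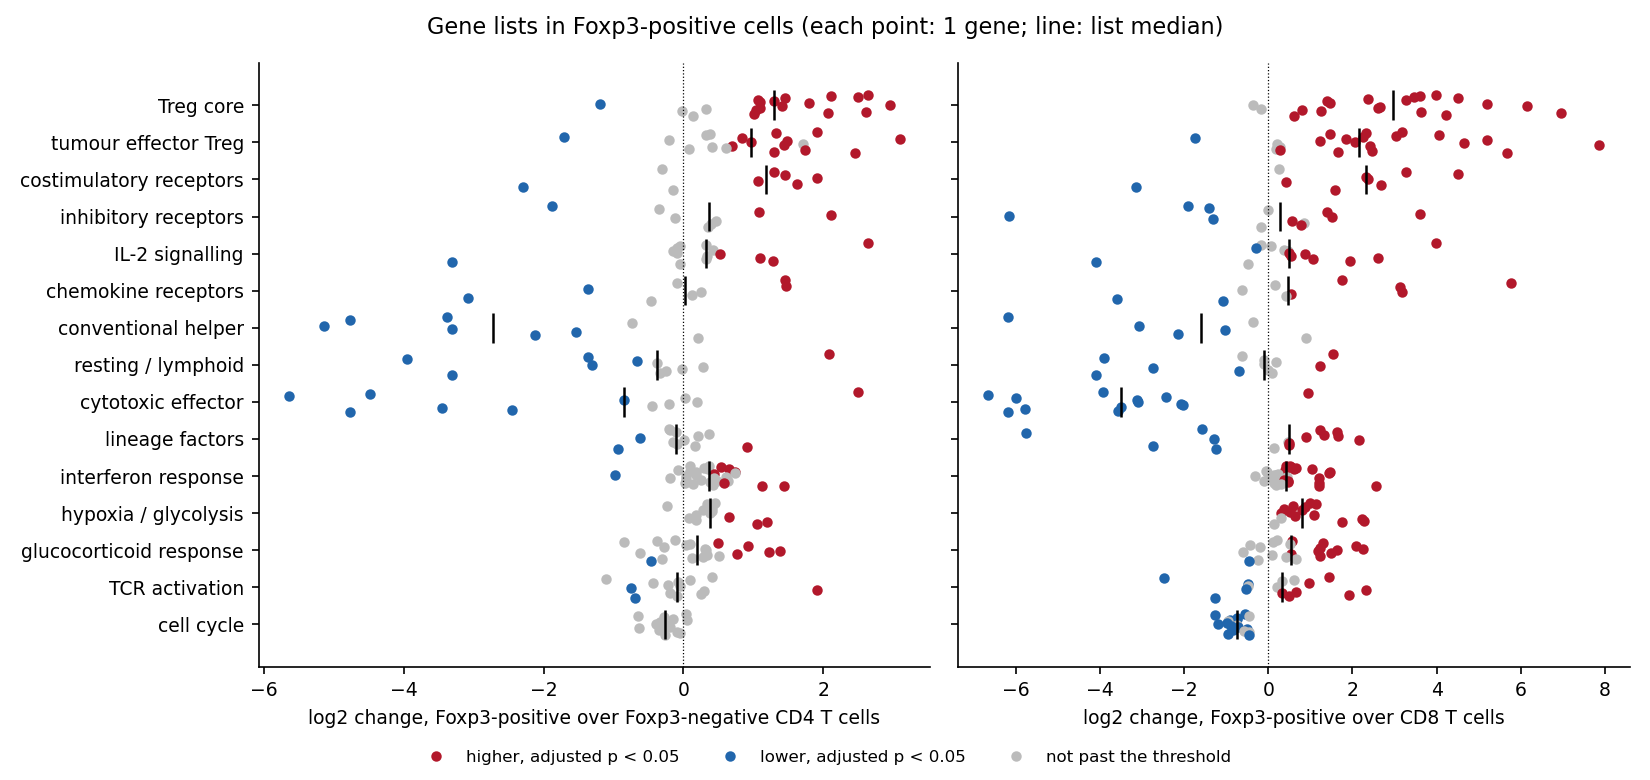
Log2 difference of each tested gene of 15 lists in Foxp3-positive cells over Foxp3-negative CD4 T cells (left) and over CD8 T cells (right), red where higher and blue where lower at the adjusted threshold, with a line at the list median. The regulatory T cell list has medians of 1.30 (left) and 2.97 (right), the helper list -2.72 and -1.59.

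Markers of other cells were counted beside these results. The 10 macrophage markers summed to 515, 2740 and 3462 CPM in Foxp3-positive cells (lowest, median and highest mouse), against 931, 1770 and 3582 CPM in Foxp3-negative CD4 T cells and 698, 1372 and 2664 CPM in CD8 T cells. Of the 7 such markers outside the rule, 1 of 5 tested passed as higher against Foxp3-negative CD4 T cells and 1 of 7 against CD8 T cells. Neutrophil markers summed to 107, 679 and 2582 CPM in Foxp3-positive cells, 69.5, 161 and 2265 CPM in Foxp3-negative CD4 T cells and 51.4, 169 and 8859 CPM in CD8 T cells. None of 3 neutrophil markers passed against Foxp3-negative CD4 T cells, and 2 of 5 were higher against CD8 T cells. B cell markers reached at most 38.9 CPM and melanoma markers at most 25.4 CPM in Foxp3-positive cells, with Pax5, Dct and Tyr at 0. Fibroblast markers summed to 12.7, 29.4 and 1367 CPM in Foxp3-positive cells, 9.64, 29.2 and 1415 CPM in Foxp3-negative CD4 T cells and 0, 36.5 and 586 CPM in CD8 T cells, and none of the 4 tested against Foxp3-negative CD4 T cells or of the 6 against CD8 T cells passed. Endothelial markers reached 152 CPM in Foxp3-positive cells, 86.9 CPM in Foxp3-negative CD4 T cells and 41.6 CPM in CD8 T cells, and red cell markers 257, 323 and 130 CPM in the same cells in that order. Of these, the 1 endothelial gene tested passed as higher against CD8 T cells. NK cell markers had a median of 0 and dendritic cell markers of 9.56 CPM in Foxp3-positive cells. The part of RNA from other cells in the genes above was not tested.

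The antibodies gave a surface readout that the rule did not use. Against Foxp3-negative CD4 T cells, 12 of 81 antibodies (14.8%) were higher and 10 (12.3%) were lower in the same 10 mice (edgeR quasi-likelihood test, adjusted p under 0.05). The median log2 difference over all antibodies was 0.13 with TMM scaling and 0.0031 with RLE scaling. In these 10 mice the CD25 antibody ranged over 19143, 23652 and 29813 CPM of all antibody counts in Foxp3-positive cells, against 2485, 3775 and 16532 in Foxp3-negative CD4 T cells. The mice did not overlap, and the log2 difference was 2.61 ± 0.24 (edgeR adjusted p = 2.2e-06). The CD103 antibody ranged over 8730, 11531 and 18331 antibody CPM in Foxp3-positive cells, against 743, 1586 and 8865 in Foxp3-negative CD4 T cells, which overlapped, a log2 difference of 2.65 ± 0.31, higher in 10 of 10 mice. ITGB7, whose protein pairs with CD103 as the receptor of E-cadherin, had a log2 difference of 2.47 ± 0.26.

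CD278, the protein ICOS, averaged 5101 ± 2685 antibody CPM in Foxp3-positive cells and 1839 ± 717 in Foxp3-negative CD4 T cells, higher in 10 of 10 mice (1.55 ± 0.20). The 4-1BB antibody CD137 rose by 1.78 ± 0.35, TIM3 by 1.66 ± 0.35, TIGIT by 1.48 ± 0.38, the adhesion molecule ICAM1 by 1.18 ± 0.15 and the ATP-degrading enzyme CD39 by 0.95 ± 0.15. In antibody CPM, TIGIT was higher in 7 of 10 mice, TIM3 in 9 of 10, and CD137, ICAM1 and CD39 in 10 of 10. CD226 fell, at 741 ± 164 antibody CPM in Foxp3-positive cells and 3056 ± 625 in Foxp3-negative CD4 T cells, lower in 10 of 10 mice (-1.90 ± 0.15). BTLA, the integrin chain CD11a, JAML and the peptidase CD26 had log2 differences of -1.14, -1.06, -0.94 and -0.89. The CD4 antibody was lower by 0.97 ± 0.11 on the log2 scale, but the Foxp3-negative cells had been selected by Cd4 RNA. With members limited to those with a Cd4 UMI it was -1.01. CD279, the antibody against PD-1, averaged 710 ± 337 antibody CPM in Foxp3-positive cells and 1484 ± 705 in Foxp3-negative CD4 T cells and did not pass (-0.91 ± 0.34, edgeR adjusted p = 0.067), but it passed with DESeq2 (adjusted p = 0.00482) and with RLE scaling (0.0326). The neuropilin-1 antibody CD304 (-0.37 ± 0.20) did not pass either, and its tag sequence is listed also for a second antibody of that protein.

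Against CD8 T cells, 16 of 85 antibodies (18.8%) were higher and 23 (27.1%) were lower in 11 mice. In these mice CD25 ranged over 19143, 24578 and 30343 antibody CPM in Foxp3-positive cells, against 1141, 1831 and 2585 in CD8 T cells, without overlap (log2 difference 4.31 ± 0.13, edgeR adjusted p = 3.8e-13). CD278 followed at 4.17 ± 0.20. The CD8a antibody (-7.01 ± 0.20) and the CD4 antibody (5.75 ± 0.27) are tied to how the cells were chosen. The negative regulator CD5 took 282281 ± 32935 antibody CPM in Foxp3-positive cells and 75921 ± 18850 in CD8 T cells (2.51 ± 0.12). CD152, the protein CTLA-4, had a log2 difference of 1.91 ± 0.35 but only 87.2 ± 38.4 antibody CPM in Foxp3-positive cells, against 27.6 ± 19.6 in CD8 T cells. The antibody listed as Rat_IgG1 averaged 102 ± 71.4 antibody CPM in Foxp3-positive cells and did not pass (0.46). IL1RL1, the interleukin-33 receptor, rose by 2.23 ± 0.30. CD279 was lower, at 749 ± 345 antibody CPM in Foxp3-positive cells and 2453 ± 661 in CD8 T cells (-1.21 ± 0.24, lower in 11 of 11 mice), as were CD223, the protein LAG-3 (-1.86 ± 0.32), and CD226 (-2.69 ± 0.17). Antibody CPM was lower in 11 of 11 mice also for CD44 (log2 difference 0.19) and Sirpa (-0.02), which did not pass. The antibody listed as Hamster passed as lower (-0.62, edgeR adjusted p = 0.041). CD39 passed as higher (0.45 ± 0.12) while its antibody CPM was higher in 5 of 11 mice, since CPM does not carry the TMM scaling of the fit. Of 32 genes with a matching antibody tested against Foxp3-negative CD4 T cells, 29 had the same sign in RNA and antibody, and of the 13 past the threshold in both, 13 had the same sign. Against CD8 T cells those counts were 32 of 41 and 23 of 23.

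**Figure D3:**
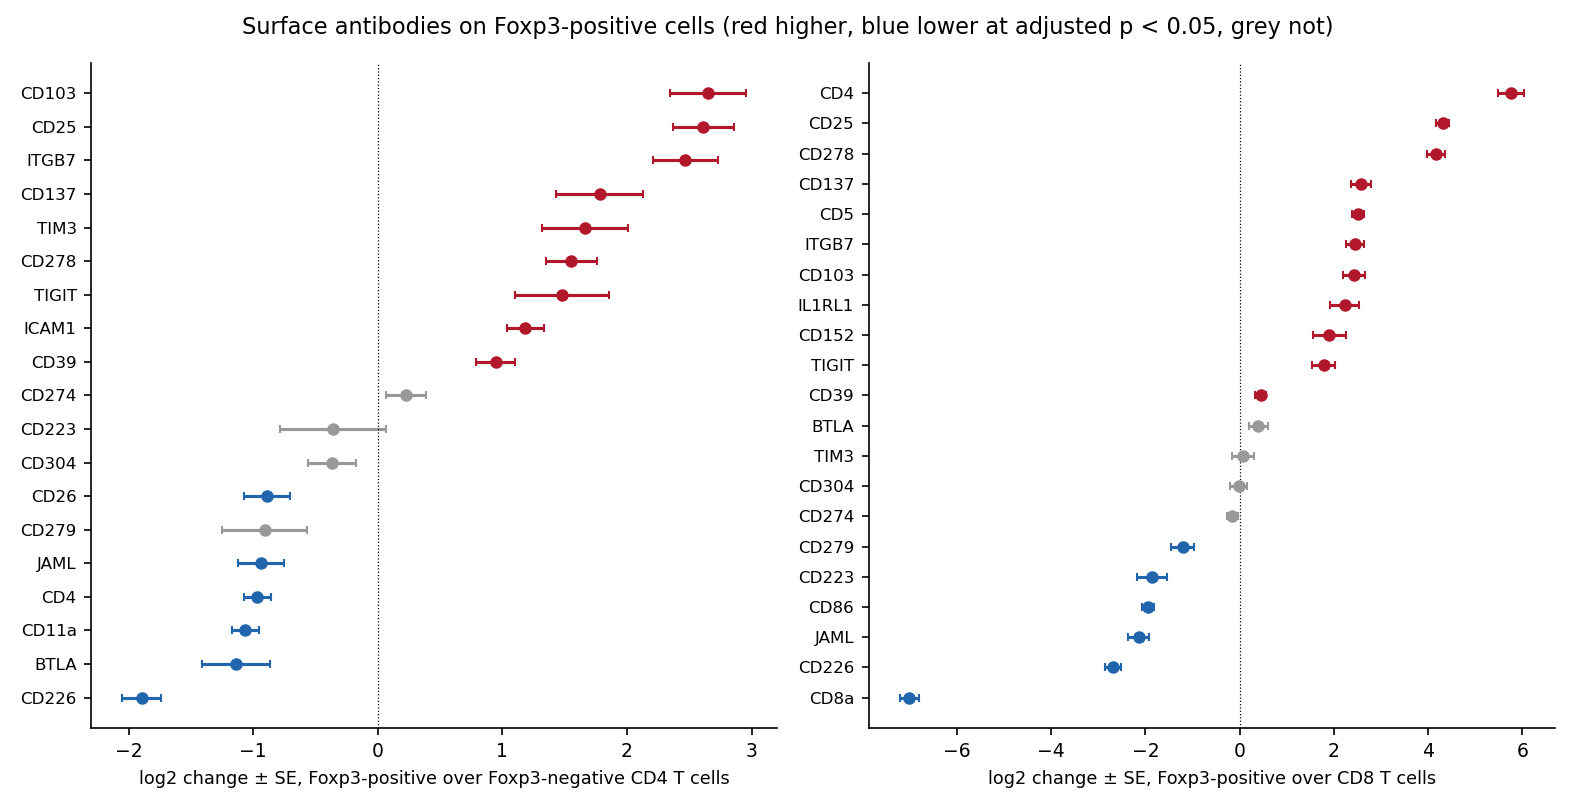
Log2 difference with its standard error, derived from the F statistic, for the named surface antibodies on Foxp3-positive cells over Foxp3-negative CD4 T cells (left, 10 mice) and over CD8 T cells (right, 11 mice). CD103, CD25 and ITGB7 lead on the left at 2.65, 2.61 and 2.47, and CD226 is lowest there at -1.90.

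The share of Foxp3-positive cells was low in floxed mice given anti-PD-1. They made up 0.636%, 0.621%, 0.718% and 1.36% of kept cells in floxed mice given anti-PD-1, against 3.05%, 4.71%, 1.83% and 2.35% in floxed mice given isotype antibody. The groups did not overlap, and these numbers rest on 6, 1, 5 and 7 members against 60, 97, 70 and 22. The means were 0.835% ± 0.356 and 2.98% ± 1.25 (SD, n = 4 each). The difference of -2.15 percentage points had an exact two-sided permutation p of 0.0286, the smallest that 4 against 4 mice allow, and of 0.114 after adjustment over 12 tests. The CD3-positive cells had no limit on Cd8a, Cd8b1, Trdc or C1q UMIs, so cells that these limits took out of the members count in the denominator only. Per CD3-positive cell the means were 4.06% ± 1.59 with anti-PD-1 and 8.49% ± 1.57 with isotype antibody, a difference of -4.43 with the same exact p of 0.0286 (adjusted 0.114). Per Foxp3-negative CD4 T cell they were 0.506 ± 0.448 and 1.39 ± 0.404 (exact p = 0.0571, adjusted 0.137). Single mice given anti-PD-1 were at 0.4, 0.25, 0.208 and 1.17, on 15, 4, 24 and 6 Foxp3-negative CD4 T cells. The last of them lay within the range of the isotype mice, 0.968 to 1.94. No adjusted value passed 0.05. With mice relabelled only within their pool, each of the 3 had an exact p of 0.0556, the smallest such relabelling allows.

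In LysM-Cre mice the share overlapped between treatments. Foxp3-positive cells made up 5.64%, 1.82%, 1.42% and 1.33% of kept cells with anti-PD-1 (30, 11, 9 and 13 members), against 4.39%, 2.78%, 1.88% and 2.39% with isotype antibody (33, 80, 18 and 47 members). The difference of means was -0.307 percentage points (exact permutation p = 0.743), and the first mouse, with 5.64% (95% Wilson interval 3.98% to 7.94%), lay far above the other 3. Per CD3-positive cell the means were 10.1% ± 3.91 with anti-PD-1 and 8.20% ± 2.21 with isotype antibody (exact p = 0.514). That difference of 1.93 percentage points was 0.0203 without the first mouse given anti-PD-1. Per Foxp3-negative CD4 T cell the means were 1.22 ± 0.357 with anti-PD-1 and 1.45 ± 0.588 with isotype antibody. The Wilson interval covers counting error only.

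Between genotypes given anti-PD-1, members were 10.1% ± 3.91 of CD3-positive cells in LysM-Cre mice and 4.06% ± 1.59 in floxed mice. The difference of 6.07 percentage points had an exact permutation p of 0.0286 (adjusted 0.114). Single mice were at 15.9%, 8.94%, 8.65% and 7.07% in LysM-Cre mice and at 3.87%, 2.94%, 3.07% and 6.36% in floxed mice, which did not overlap. Per kept cell the difference was 1.72 (exact p = 0.0571, adjusted 0.137), and 0.689 without the LysM-Cre mouse at 5.64%. With isotype antibody, LysM-Cre mice had 2.86% ± 1.08 and floxed mice 2.98% ± 1.25 of kept cells (exact p = 0.857), and 8.20% ± 2.21 against 8.49% ± 1.57 of CD3-positive cells (exact p = 0.857). For the difference between genotypes in the anti-PD-1 effect, genotype labels were permuted within each treatment. Such a p refers to no genotype effect in either treatment, and not only to equal effects of anti-PD-1. The difference was 6.36 percentage points per CD3-positive cell (LysM-Cre minus floxed), with an exact permutation p of 0.0327 over 4900 relabellings and of 0.098 after adjustment over 3 tests. Per kept cell it was 1.84 (exact p = 0.202). Without the first LysM-Cre mouse given anti-PD-1, it was 4.45 per CD3-positive cell (exact p = 0.0543) and 0.813 per kept cell (exact p = 0.359). Shares are parts of a whole, so fewer Foxp3-positive cells and more other cells cannot be told apart.

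**Figure D4:**
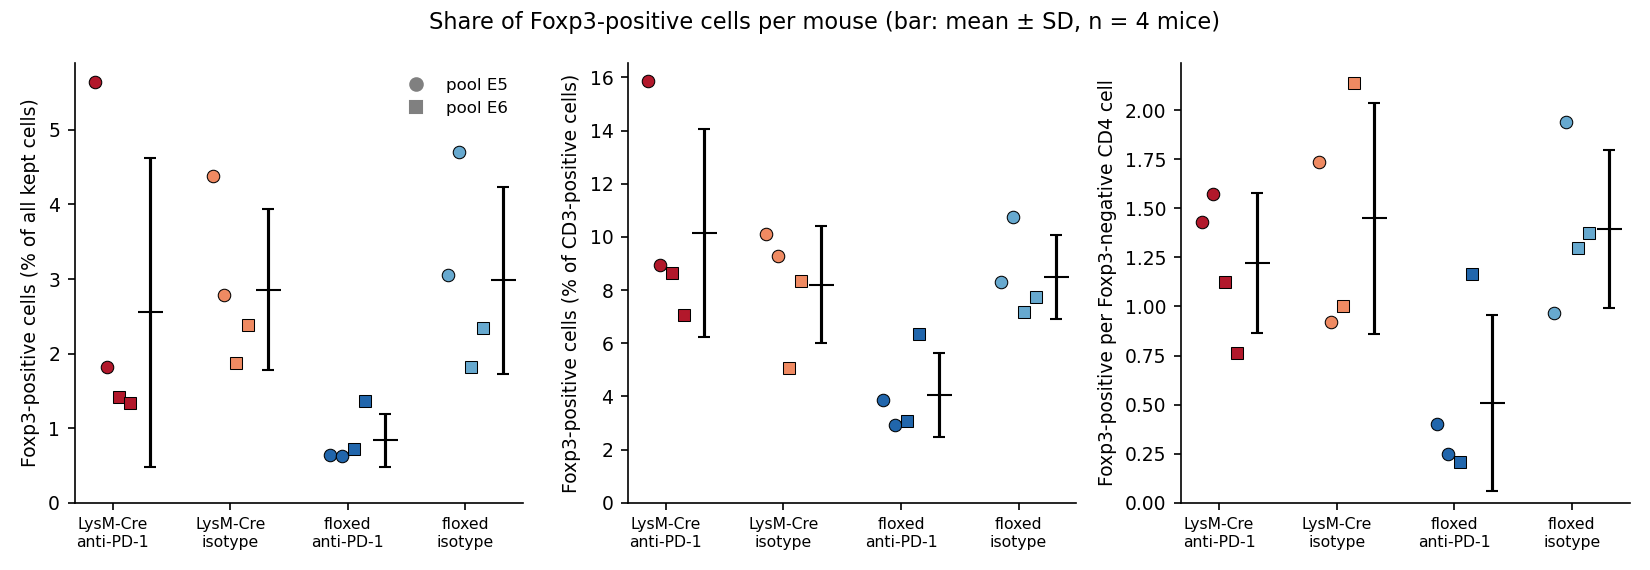
Foxp3-positive cells per mouse as a percentage of kept cells (left), as a percentage of CD3-positive cells (middle) and per Foxp3-negative CD4 T cell (right), circles for pool E5 and squares for pool E6, with mean ± SD over 4 mice. The 4 floxed mice given anti-PD-1 lie between 0.621% and 1.36% of kept cells, below the 4 floxed mice given isotype antibody.

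Within the Foxp3-positive cells, few features differed between conditions at this number of cells. Counts were tested over the 11 mice with at least 10 members, 3 LysM-Cre mice given anti-PD-1, 4 LysM-Cre mice given isotype antibody and 4 floxed mice given isotype antibody. No floxed mouse given anti-PD-1 had 10 members. The 2 contrasts below share the LysM-Cre mice given isotype antibody. With edgeR's quasi-likelihood test, 0 of 4519 genes (0%) passed between LysM-Cre and floxed mice given isotype antibody, with 160 at an unadjusted p under 0.05 and 1 by DESeq2. Between anti-PD-1 and isotype antibody in LysM-Cre mice 0 of 4519 genes (0%) passed, with 219 at an unadjusted p under 0.05 and 0 by DESeq2. On simulated counts for these 2 contrasts, 55.5% and 37.5% of 200 genes changed 4-fold were recovered, against 87.5% for the comparison with Foxp3-negative CD4 T cells. The simulation gave every gene the same fixed dispersion and held no mouse or pool effect. Genes with very low expected counts were not among those changed. These percentages therefore do not measure the power of the real fits.

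The gene that DESeq2 called was Mki67, which encodes the proliferation marker Ki-67 and is named here because of that call. Mki67 stood at 49.0, 64.4, 63.6 and 49.8 CPM in LysM-Cre mice given isotype antibody, against 206, 132, 118 and 217 CPM in floxed mice given isotype antibody. The groups did not overlap. The log2 difference was -1.53 ± 0.27 by edgeR, which did not pass (adjusted p = 0.160), and -1.55 by DESeq2 (adjusted p = 0.0343). In LysM-Cre mice given anti-PD-1, Mki67 stood at 124, 146 and 82.8 CPM, and at 0 in the mouse with 9 members. Of 13 tested cell cycle genes, 0 were fitted higher in LysM-Cre than in floxed mice given isotype antibody (median log2 difference -1.09, 7 at an unadjusted p under 0.05). All 13 were fitted higher with anti-PD-1 than with isotype antibody in LysM-Cre mice (median 0.96, 4 at an unadjusted p under 0.05). The medians over all genes tested were -0.0041 and 0.010. None of these genes passed the adjusted threshold in edgeR. The 3 tested fibroblast markers had medians of -2.35 and 1.21 in the same 2 contrasts, and the part of other cells in the cell cycle values was not tested.

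Other genes of interest showed no call in either contrast. The 19 tested regulatory T cell genes had medians of 0.15 between genotypes and -0.079 between treatments. Nr3c1 stood at 132, 129, 203 and 216 CPM in LysM-Cre mice given isotype antibody, against 120, 96.0, 150 and 158 CPM in floxed mice given isotype antibody, which overlapped (log2 difference 0.36 ± 0.18, edgeR adjusted p = 0.999). With anti-PD-1, the 3 tested LysM-Cre mice had 148, 87.4 and 193 CPM of Nr3c1 (-0.08 ± 0.23 against isotype antibody). Counts from the 3′ end need not cover the floxed exon, so they do not show whether the gene was recombined. The 18 tested glucocorticoid response genes had medians of 0.28 between genotypes and -0.25 between treatments. Ccr7 stood at 0, 75.4, 50.9 and 99.6 CPM in LysM-Cre mice given isotype antibody, against 7.18, 8.23, 4.62 and 6.58 CPM in floxed mice given isotype antibody. Its log2 difference of 3.01 did not pass (edgeR adjusted p = 0.860) but passed at 3.53 without the first of these LysM-Cre mice (adjusted p = 0.0335) and with no filter on low counts (adjusted p = 1.5e-07).

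One surface antibody passed. CD278 (ICOS) stood at 8660, 10094 and 10957 antibody CPM in the 3 tested LysM-Cre mice given anti-PD-1, against 3888, 4694, 3318 and 1778 in LysM-Cre mice given isotype antibody. These did not overlap, while the fourth mouse given anti-PD-1, with 9 members and not tested, stood at 4118. The log2 difference was 1.55 ± 0.30 (edgeR adjusted p = 0.0227), the only one of 75 antibodies (1.33%), with 4 at an unadjusted p under 0.05. It was lost when the mice with at least 5 members were used, where it was 1.35 (adjusted p = 0.139), and without LysM-Cre anti-PD-1 mouse 2 or 4 (adjusted p = 0.0878 and 0.296) or LysM-Cre isotype mouse 3 (0.0520). Icos RNA in the same mice was 741, 865 and 1200 CPM with anti-PD-1 and 893, 899, 750 and 825 CPM with isotype antibody, a log2 difference of 0.15 ± 0.18 (edgeR adjusted p = 0.965). In floxed mice given isotype antibody CD278 stood at 4292, 4875, 4185 and 4364 antibody CPM. Between genotypes given isotype antibody 0 of 75 antibodies (0%) passed in edgeR and in DESeq2, with 2 at an unadjusted p under 0.05. DESeq2 called 3 antibodies, CD47 (1.04) and CD278 (1.59) among them, for anti-PD-1 against isotype antibody in LysM-Cre mice.

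**Figure D5:**
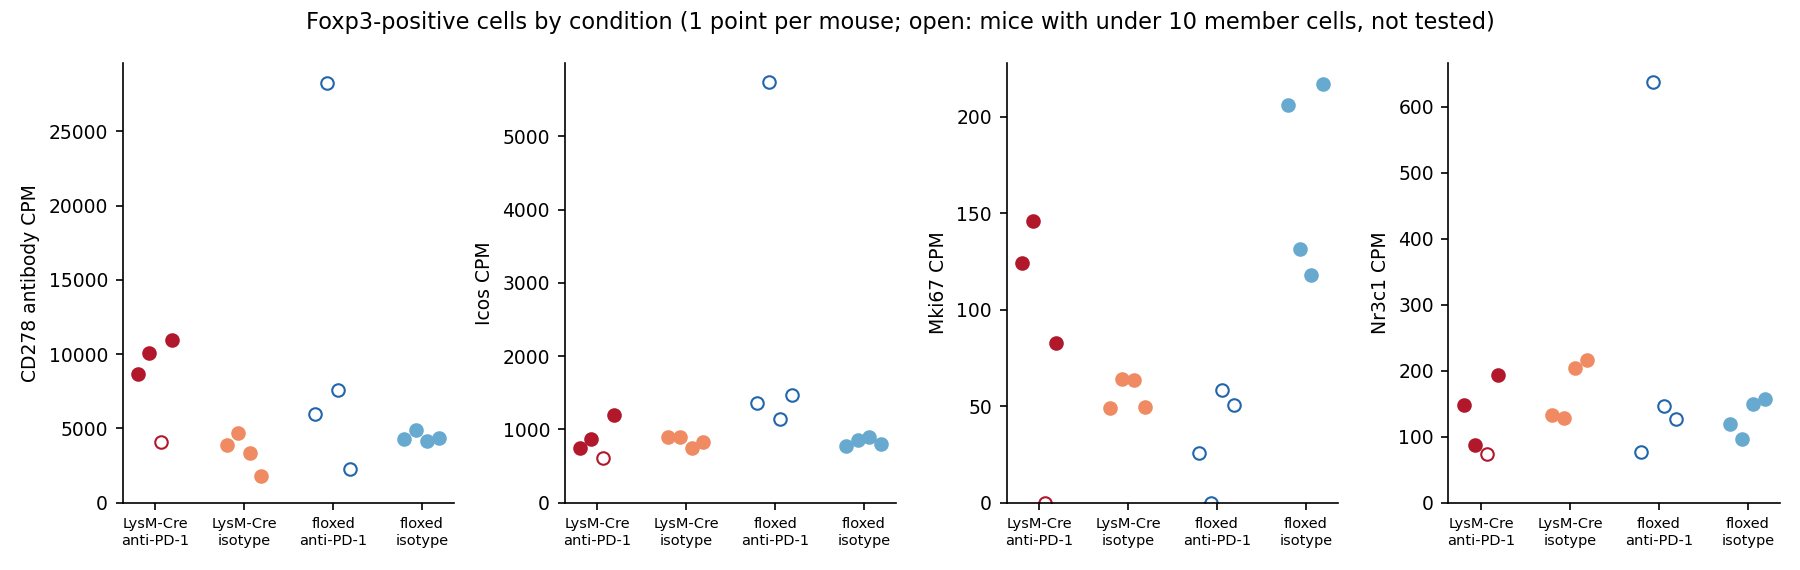
Levels in Foxp3-positive cells by condition, 1 point per mouse, for the CD278 antibody in CPM of antibody counts and for Icos, Mki67 and Nr3c1 RNA in CPM, with open points for mice under 10 members, which were not tested. CD278 is at 8660 or more in the 3 tested LysM-Cre mice given anti-PD-1, and Mki67 at 64.4 or less in LysM-Cre mice given isotype antibody.

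With the limit lowered to 5 members, 15 mice entered, 3 of them floxed mice given anti-PD-1. Between anti-PD-1 and isotype antibody in floxed mice, 0 of 3335 genes (0%) and 0 of 75 antibodies (0%) passed, with 215 genes and 8 antibodies at an unadjusted p under 0.05. Between LysM-Cre and floxed mice given anti-PD-1, 0 genes (0%) and 1 antibody (1.33%) passed, with 230 genes at an unadjusted p under 0.05. The floxed values rest on 6, 5 and 7 members. For the difference between genotypes in the anti-PD-1 effect, 0 genes (0%) and 0 antibodies (0%) passed, with 240 genes and 4 antibodies at an unadjusted p under 0.05. DESeq2 was not run on the fits with 5 members.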

How the data were processed

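Gene and antibody counts (UMIs) per barcode were used as deposited, from 2 pools with 32285 genes, 88 surface antibodies and 8 hashtags each. They were made with Cell Ranger, version 6.1.2 per the file headers and 3.0.1 per the submitters' processing notes, on mm10. A mouse is a pool and a hashtag.

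Counts were summed per mouse and cell group for mice with at least 10 cells. They were tested with edgeR 4.0.16 (TMM, filterByExpr for genes, a total of at least 100 for antibodies) and Benjamini-Hochberg adjustment, with the mouse as a block between cell groups and the pool as a covariate between conditions. The block follows from both cell groups coming from the same mouse. With no floxed mouse given anti-PD-1 at 10 members, the planned additive models over both genotypes and both treatments reduce to the 2 contrasts reported. Shares were compared by exact permutation over mice. The mice tested across conditions held 72492 to 729013 gene UMIs in members, and totals this small limit what can be detected. CPM is counts per 1000000 gene or antibody counts. Scripts were tested on simulated data.

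The members, lists and tests were chosen with earlier results of these data known. Named genes are the 5 markers, Nr3c1, up to 12 genes in each direction with the largest log2 difference among those past an adjusted p of 0.05 and at 20 CPM or more in the higher group, with 0.75 or more of the mice sharing the fitted sign, and up to 6 examples per list (at an average of 10 CPM or more). For antibodies the rule allows 15 by size plus those to regulatory, inhibitory and costimulatory genes. Mki67, Ccr7, CD47 and the CD4 antibody across conditions were named after their values were seen. Fewer were printed than the rule allows, marker lists of other cells got counts and sums, and lists across conditions got medians. The gene lists are regulatory, tumour effector, resting, helper, inhibitory, costimulatory, chemokine receptor, lineage, interleukin-2, cytotoxic, interferon, cell cycle, glucocorticoid, hypoxia, T cell receptor, stress and cell type marker genes. Alternatives were DESeq2 1.42.0, RLE scaling, no filter, 2 or more Foxp3 UMIs, a hashtag share of 90%, thinning to 2000 UMIs, no block, other limits on members and leaving out each mouse. A few genes and antibodies are not reported here. Promoters are from RefSeq, GRCm38.p6.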

Additional observations from a re-analysis of the deposited data

Results flagged for a closer look

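Among 24 groups of 4 mice examined for a value far from the rest, 2 held one, and chance gives about 1 in 20 groups. Both concern the share of kept cells that were Foxp3-positive. In LysM-Cre mice given anti-PD-1, the first mouse had 5.64% where the other 3 had 1.33% to 1.82%. In floxed mice given anti-PD-1, the fourth mouse had 1.36% where the other 3 had 0.621% to 0.718%. These are high values from 30 and 7 members.

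The effect of anti-PD-1 on the share per CD3-positive cell differed between genotypes by 6.36 percentage points (LysM-Cre minus floxed), with an exact permutation p of 0.0327 and of 0.098 adjusted over 3 tests. That p refers to no genotype effect in either treatment, and the CD3-positive cells include cells that the rule's limits took out of the members. Within LysM-Cre mice the mean was 1.93 percentage points higher with anti-PD-1, and within floxed mice it was 4.43 points lower (difference -4.43). Without the first LysM-Cre mouse given anti-PD-1, the LysM-Cre difference was 0.0203 points, and 0.890 without the third LysM-Cre mouse given isotype antibody. Without that first mouse the difference between genotypes was 4.45 points (exact permutation p = 0.0543). The interaction did not pass after adjustment, and the ratio to Foxp3-negative CD4 T cells gave 0.663 (exact p = 0.191).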

How the results depend on the processing

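Across alternatives, 601 values of comparisons kept direction and threshold side, 28 counts moved by over 1.5 times and 13 share differences reversed. Of values for named genes and antibodies, 4265 kept both, 94 lost the threshold, 23 gained it and 59 reversed. No named gene or antibody called between cell groups reversed in any alternative run, and 14 of 77 genes against Foxp3-negative CD4 T cells, 6 of 99 against CD8 T cells, 0 of 15 and 1 of 17 antibodies lost their call at least once. With cells thinned to 2000 UMIs, 382 genes (198 higher, 184 lower) passed against Foxp3-negative CD4 T cells and 1146 (572 higher, 574 lower) against CD8 T cells, where fewer genes could be tested. Of the 361 genes of the first comparison that could be tested, 303 kept their call, and of the 2264 against CD8 T cells 1454 could be tested, 1045 kept their call and 3 had the opposite sign. Without the mouse block, 581 of 4562 genes tested passed against Foxp3-negative CD4 T cells, in place of 615 of 5134. Against CD8 T cells 2255 of 6694 passed, in place of 2264 of 7678. Fewer genes were tested because the filter on low counts depends on the model. The antibodies that passed were 25 and 34 in place of 22 and 39. The calls of Mt2 (0.0542), Jun (0.0584), Dusp1 (0.0875) and Btg1 (0.0526) against Foxp3-negative CD4 T cells were lost while the CD279 antibody passed (0.0262). The block changed no other call of a named gene or antibody. Replicate numbers pair no mice across conditions, so no other pairing was made.

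Calls against Foxp3-negative CD4 T cells lost without 1 mouse include Il10 (adjusted p up to 0.108, when LysM-Cre isotype mouse 2 was dropped, and above 0.05 on dropping LysM-Cre anti-PD-1 mouse 4, LysM-Cre isotype mouse 3 or floxed isotype mouse 3 or 4), Havcr2 (0.0768 on dropping LysM-Cre isotype mouse 2 and 0.0562 on dropping floxed isotype mouse 1), Il12rb2 (0.0766 and 0.0724 without floxed isotype mouse 2 or 1, and 0.0514 when LysM-Cre anti-PD-1 mouse 1 was dropped), Ccr7 (0.0609 on dropping LysM-Cre isotype mouse 3 and 0.0523 on dropping floxed isotype mouse 2), Ikzf3 (0.0724) and Runx3 (0.0561) without LysM-Cre isotype mouse 2, and Runx3 without floxed isotype mouse 2 (0.0580). Mt2 was lost without any of 7 mice (up to 0.123) and Jun without any of 5 (up to 0.0673). Cish was lost in members with a Cd4 UMI (0.0514), an alternative chosen after seeing the data, and Gzmk with DESeq2 (0.315). The CD39 antibody against CD8 T cells did not pass once LysM-Cre anti-PD-1 mouse 2 was dropped (0.0710) and with 2 Foxp3 UMIs (0.0742). The cause of these losses was not tested. Allowing only members without C1q, Lyz2, Cd79a or S100a8 UMIs left no mouse with 10 members and gave no value.

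Across conditions, a fit with no filter on low counts gave 51 calls between genotypes given isotype antibody (8 higher, 43 lower). Between treatments in LysM-Cre mice it gave 35 (9 higher, 26 lower). That fit also tests genes near 0 counts, so its calls stand on a larger set of genes than the 4519 of the main fit. DESeq2 gave 1 gene (lower) between genotypes and 3 antibodies (higher) between treatments, and mice with at least 5 members 0 antibodies. Leaving out single mice gave 0 to 1 genes between genotypes and 0 to 4 antibodies between treatments, 4 without LysM-Cre anti-PD-1 mouse 1 and 0 without LysM-Cre anti-PD-1 mouse 2 or 4 or LysM-Cre isotype mouse 3.

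None of the share differences passed, and 5 of the 12 between 2 conditions changed sign when 1 mouse was left out. Between treatments in LysM-Cre mice they ran over -1.34 to 0.203 per kept cell and -0.402 to 0.00363 per Foxp3-negative CD4 T cell. Between genotypes given isotype antibody they ran over -0.633 to 0.451 per kept cell, -0.919 to 0.755 per CD3-positive cell and -0.176 to 0.235 per Foxp3-negative CD4 T cell, and the last was -0.0966 with 2 Foxp3 UMIs. The difference between genotypes in the anti-PD-1 effect, with alternatives chosen after seeing the data, kept its sign and did not pass in any of them, at 4.45 to 7.38 per CD3-positive cell and 0.813 to 2.35 per kept cell without single mice, and 0.910 per kept cell with thinned cells.

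Named features that did not pass and changed sign were few. Between genotypes given isotype antibody, leaving out mice gave -0.15 to 0.18 for Il2ra, -0.087 to 0.16 for Ctla4, -0.037 to 0.090 for Icos, -0.052 to 0.30 for Nfkbia and -0.078 to 0.083 for the CD4 antibody. A hashtag share of 90% gave -0.027 for Il2ra, -0.038 for Icos and 0.017 for the CD4 antibody. No filter gave -0.012 for Ctla4, -0.038 for Icos and 0.031 for the CD4 antibody, and mice with at least 20 members gave -0.11 for Ctla4 and 0.11 for the CD4 antibody. The CD4 antibody was at 0.0097 with at least 5 members and 0.17 with 2 Foxp3 UMIs. Between treatments in LysM-Cre mice, leaving out mice gave -0.35 to 0.041 for Il2ra, -0.21 to 0.11 for Ctla4, -0.30 to 0.053 for Nr3c1, -0.14 to 0.081 for Foxp3, -0.050 to 0.30 for Icos and -0.31 to 0.29 for Nfkbia. With 2 Foxp3 UMIs Ctla4 was at 0.088 and Nr3c1 at 0.14, and a hashtag share of 90% put Ctla4 at 0.020. Between cell groups, Stmn1 against Foxp3-negative CD4 T cells was at 0.070 with DESeq2, 0.00085 with no filter, 0.21 with 2 Foxp3 UMIs and 0.24 in members with a Cd4 UMI, and -0.29 to 0.27 without single mice. CD304 against CD8 T cells was at 0.013 with DESeq2, 0.025 with RLE scaling and -0.26 to 0.053 without single mice, and TIM3 at -0.0037 with a hashtag share of 90% and -0.082 to 0.15 without single mice.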

Other observations

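With no limit on C1q UMIs, chosen after seeing the data, the share of Foxp3-positive cells per kept cell was 3.21 percentage points lower in floxed mice given anti-PD-1 than in floxed mice given isotype antibody (difference -3.21, exact permutation p = 0.0286, adjusted 0.171), where the limit gave -2.15. With cells thinned to 2000 UMIs before the rule was applied it was -1.71, with the same exact p. Integrin beta 7 antibody reached 809593 antibody CPM in the CD8 T cells of the first floxed mouse given anti-PD-1. In the 11 mice with tested members it ranged over 4489 to 15702 on CD8 T cells and 21931 to 43751 on Foxp3-positive cells. The first floxed mouse given anti-PD-1 had 6 members and entered none of the tests between cell groups.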
